A study of Mus musculus with 9 samples.

Results

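Blood-retina barrier genes are here genes that act in the barrier by which retinal vessels and epithelium hold plasma out of the neural tissue. Not all of them tighten it: Plvap and Cav1 belong to vesicles, so a rise does not mean the same for every gene. Those described here are Cldn5, Ocln, Tjp1, Lsr, Mfsd2a, Slco1c1, Abcb1a, Plvap and Cav1, chosen by their symbols, 9 of the 26683 genes listed in the count table. RNA from whole mouse retina was measured by bulk RNA sequencing at postnatal day 17 in 9 libraries, 3 per group. The Gel group is oxygen-induced retinopathy (OIR) with the PCC1/PHCF hydrogel, a carrier that releases procyanidin C1, injected into the vitreous at postnatal day 15. The PBS group is OIR with phosphate-buffered saline by the same route on the same day. Normoxic libraries came from normoxic mice, which have no OIR, and the labels do not say that these mice were injected. Oxygen history and, as far as the labels tell, injection cannot be told apart between PBS and Normoxic, nor drug and carrier between Gel and PBS. The labels give no strain or sex, and the only word on genotype is that the Normoxic library names begin with WT. All libraries carry the same batch date, and whether the replicates are separate animals is not given, so p-values measure only the spread between these samples.

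In OIR, high oxygen stops the growth of the retinal capillary bed, and the return to room air leaves a hypoxic retina in which new and leaky vessels form. The inner barrier lies in the endothelium of retinal vessels, which seals its cell borders with tight junctions, carries few vesicles across the cell and has no fenestrae. Transporters in the same cells bring in nutrients and pump out drugs. Norrin and Wnt ligands, through beta-catenin, switch this program on in endothelial cells. The pigment epithelium forms the outer barrier with tight junctions of its own.

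The libraries held 29324142 to 35663470 counts, and all 9 barrier genes passed the filter on low counts, with 39 to 4478 counts per gene and library. Levels are given as CPM (counts per 1e+06 counts of the library). Differences are log2 fold changes with standard error (SE) from the edgeR quasi-likelihood test, and a gene is called where the Benjamini-Hochberg adjusted p over the 17362 genes kept is under 0.05. The tissue label held: 11 photoreceptor and neuron markers, such as Gnat1, summed to 17998 to 21177 CPM in Gel, 17620 to 22053 CPM in PBS and 17596 to 19605 CPM in Normoxic, with 0 of 11 at 0. A set of 18 pan-endothelial genes was read beside them (Pecam1, Tie1, Eng and others, none of them a barrier gene described here). Of the 18, edgeR called 10 higher in PBS versus Normoxic (4.31% of all genes) and 2 in Gel versus Normoxic (1.12% of all genes). Their summed level was 236 to 279 CPM in Gel, 235 to 343 CPM in PBS and 145 to 175 CPM in Normoxic. The 12 pigment epithelium markers, from the layer behind the neural retina, summed to 186 to 276 CPM in Gel, 82.2 to 283 CPM in PBS and 42.9 to 139 CPM in Normoxic, with 0 of 12 at 0 in any group. Among 10 markers of surface and ciliary epithelium, Krt5 had 761 counts in Gel 2 and at most 3 in any other library, and Krt12 697 counts in Gel 2 and at most 27 elsewhere. PBS 3 had the highest share of ribosomal protein counts (2.68%, against 1.08% to 1.67% in the other 8 libraries). It also had the strongest dependence of its counts on gene length, with a Spearman correlation across genes of -0.49 between length and its deviation from the other PBS libraries. The same correlation was 0.32 in PBS 1, 0.41 in PBS 2, 0.32 in Gel 1, -0.29 in Gel 2 and -0.20 in Gel 3. Each value is relative to the other libraries of its group, so the values within a group depend on each other. PBS 3 is part of the reference for PBS 1 and PBS 2, whose values do not show a length dependence of their own. In the Normoxic libraries it was -0.045 to 0.029.

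Per unit of gene length, Cldn5, the main claudin of endothelial tight junctions, had the highest level of the barrier genes in every group. Its mean FPKM (fragments per kilobase and 1e+06 fragments, the authors' values) was 40.9 ± 9.29 in Gel, 39.4 ± 16.8 in PBS and 24.8 ± 3.18 in Normoxic (SD, n = 3 each). Cav1 and Tjp1 came next at 12.3 to 16.7 FPKM, and their ranges overlapped in Gel and Normoxic but not in PBS. Plvap, Lsr, Mfsd2a, Abcb1a and Slco1c1 lay between 0.926 and 4.15 FPKM. Ocln was the lowest, at 0.887 ± 0.225 in Gel, 0.895 ± 0.270 in PBS and 0.852 ± 0.196 in Normoxic. Plvap stood above Lsr in PBS, with ranges apart, and in Normoxic, with overlap, and below it in Gel, with overlap. Slco1c1 stood next above Ocln in Gel (0.987 ± 0.166 FPKM) and PBS (0.926 ± 0.489), with overlap, and between Lsr and Mfsd2a in Normoxic (2.23 ± 0.214), overlapping with both.

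**Figure D1:**
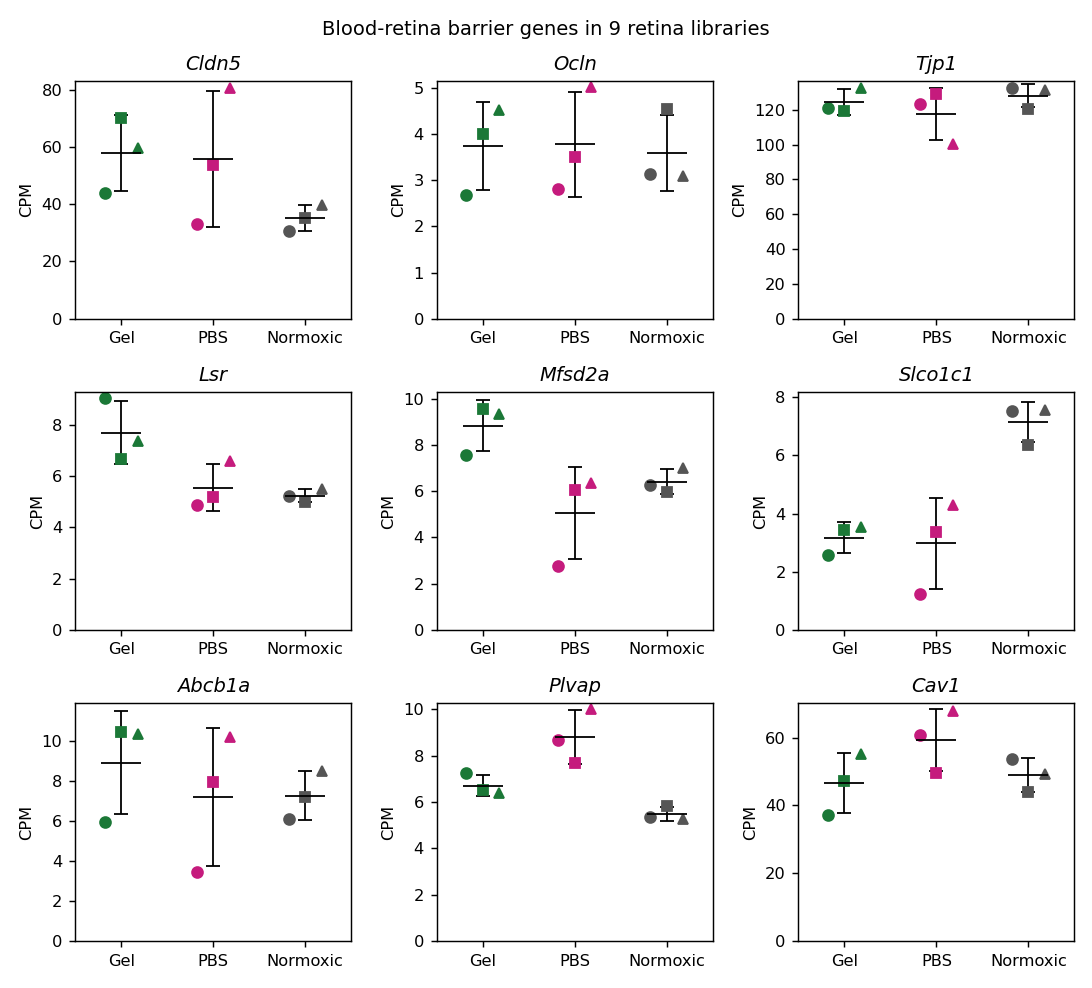
Level of each barrier gene (CPM, y axis from 0) in the Gel, PBS and Normoxic libraries, with replicates 1, 2 and 3 as circle, square and triangle and the group mean ± SD as black bars (n = 3). Slco1c1 lies at 4.30 CPM or less in all 6 OIR libraries and at 6.37 CPM or more in the Normoxic libraries, while the Plvap values of PBS, 7.70 to 10.02 CPM, lie above those of both other groups.

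The junction genes were compared first between saline-injected OIR and Normoxic retinas, to see what OIR with an injection of saline changes in the seal between cells. In whole-retina RNA, fewer cells of a type and less RNA per cell cannot be told apart. Cldn5 (Entrez 12741) had 33.2, 53.7 and 80.6 CPM in PBS 1, 2 and 3, against 30.6, 35.2 and 39.6 CPM in the Normoxic libraries. PBS 2 and PBS 3 were above all Normoxic libraries and PBS 1 was within their range. The log2 difference was 0.69 ± 0.29 (SE, 95% interval 0.06 to 1.32) and missed the threshold (edgeR adjusted p = 0.195, range 0.0459 to 0.561 over the alternatives). Without PBS 1 it was 0.96 and passed (edgeR adjusted p = 0.0459), and without PBS 3 it was 0.28 (edgeR adjusted p = 0.561). The order of PBS 1, 2 and 3 in Cldn5 was also that of their summed pan-endothelial level (235, 256 and 343 CPM), and the part of vessel content in the difference was not tested.

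Ocln (Entrez 18260) encodes occludin, a membrane protein of tight junctions in endothelium and epithelium. It had 2.80, 3.51 and 5.04 CPM in PBS and 3.14, 4.55 and 3.10 CPM in Normoxic, with full overlap and a log2 difference of 0.09 ± 0.29 (edgeR adjusted p = 0.878). Tjp1 (Entrez 21872), which encodes the scaffold ZO-1 and is made by many retinal cells, had 123, 129 and 100 CPM in PBS, against 133, 120 and 131 CPM in Normoxic. PBS 3 was the lowest of the 9 libraries and the others overlapped, and the log2 difference was -0.12 ± 0.10 (95% interval -0.35 to 0.11, edgeR adjusted p = 0.533). With the trend of counts on gene length removed it was 0.017. Lsr (Entrez 54135), which encodes the angulin that organises contacts where 3 cells meet, had 4.87, 5.18 and 6.58 CPM in PBS and 5.22, 4.98 and 5.49 CPM in Normoxic (0.10 ± 0.19, edgeR adjusted p = 0.778). PBS 3 was above the Normoxic libraries and the other PBS libraries were not.

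Among the transporters, Slco1c1 had the largest log2 difference between PBS and Normoxic. Slco1c1 (Entrez 58807) encodes a carrier of thyroid hormone and organic anions at the blood-brain barrier and in brain astrocytes. It had 1.24, 3.37 and 4.30 CPM (39, 99 and 153 counts) in PBS, against 7.54, 6.37 and 7.58 CPM (221, 207 and 232 counts) in Normoxic. Every PBS library was below every Normoxic library, PBS 1 by the most. The mean was 2.97 ± 1.57 CPM in PBS, against 7.16 ± 0.687 CPM in Normoxic (SD, n = 3 each), a level 2.37-fold lower in PBS (log2 fold change -1.25 ± 0.36, SE). It was not called (edgeR adjusted p = 0.0667, in a range of 0.00109 to 0.190 over the alternatives). DESeq2 called it lower (adjusted p = 0.00739), as did limma-voom (adjusted p = 0.0381). It was also called without PBS 3 (edgeR adjusted p = 0.0115), when the log2 fold change was -1.66. Retinal astrocyte markers, 6 in all, summed to 370 to 565 CPM in PBS and 115 to 130 CPM in Normoxic, with 0 of 6 at 0, and their part in the Slco1c1 values was not tested. Most of that sum in PBS was Gfap, which averaged 265 CPM in PBS and 21.7 CPM in Normoxic. Of the 6, edgeR called 4 higher in PBS (4.31% of all genes) and 0 lower. Besides Gfap they were Cd9 (100 CPM in PBS, 46.2 CPM in Normoxic), Aldh1l1 (44.3 and 27.2 CPM) and Pdgfra (34.9 and 19.3 CPM). Igf2bp2 (7.49 CPM in PBS, 5.52 CPM in Normoxic) and Pax2 (1.32 and 1.55 CPM) were not called.

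Mfsd2a (Entrez 76574) encodes the lipid carrier that takes docosahexaenoic acid across the endothelium and keeps its vesicle traffic low. It had 2.74, 6.03 and 6.36 CPM in PBS, against 6.27, 5.94 and 6.99 CPM in Normoxic. PBS 1 was below the Normoxic libraries and the other PBS libraries were within their range, and the log2 difference was -0.33 ± 0.27 (edgeR adjusted p = 0.509, -0.031 without PBS 1). Abcb1a (Entrez 18671), an efflux pump of drugs known as P-glycoprotein, had 3.44, 7.97 and 10.2 CPM in PBS and 6.10, 7.20 and 8.52 CPM in Normoxic. The PBS values surrounded the Normoxic values on both sides (log2 difference 0.0016 ± 0.35, edgeR adjusted p = 0.999). Counts of Abcb1a may be split with those of its close paralog Abcb1b, which averaged 0.920 CPM in PBS and 0.681 CPM in Normoxic. In all of Slco1c1, Mfsd2a and Abcb1a the lowest PBS value was that of PBS 1 and the highest that of PBS 3.

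The vesicle genes held the only call. Plvap (Entrez 84094) encodes the protein of fenestral diaphragms and caveolae, and mature retinal endothelium makes little of it. It rose to 8.66, 7.70 and 10.02 CPM in PBS, against 5.35, 5.85 and 5.26 CPM in Normoxic. Every PBS library was above every Normoxic library, with means of 8.79 ± 1.16 CPM in PBS, against 5.49 ± 0.315 CPM in Normoxic (SD, n = 3 each), a log2 fold change of 0.70 ± 0.16 (edgeR adjusted p = 0.0299, range 0.00165 to 0.174 over the alternatives). The call ended without Normoxic 1, 2 or 3, PBS 1, PBS 3 or Gel 2 (edgeR adjusted p = 0.0523 to 0.110), with log2 fold changes of 0.56 to 0.74 in those fits, and with a fit to the 6 PBS and Normoxic libraries alone (edgeR adjusted p = 0.0676). With the libraries scaled to endothelial genes, which moves the median of all genes to -1.01, the log2 difference of Plvap was -0.36. Cav1 (Entrez 12389), the structural protein of caveolae, which Muller glia also make, had 60.7, 49.4 and 67.8 CPM in PBS, against 53.7, 43.9 and 49.3 CPM in Normoxic. PBS 1 and PBS 3 were above all Normoxic libraries, and the log2 difference was 0.29 ± 0.17 (95% interval -0.08 to 0.66, edgeR adjusted p = 0.340), or 0.16 without PBS 3. The 10 Muller glia markers summed to 4308 to 5464 CPM in PBS and 4764 to 5256 CPM in Normoxic, with 0 of 10 at 0.

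In this comparison 1 of the 9 barrier genes was called higher and 0 lower, where edgeR called 4.31% of all genes higher and 2.03% lower (6.34% in either direction). With DESeq2, which called 1936 genes in all, and with limma-voom, which called 1072, 1 was higher and 1 lower, and in edgeR 3 had an unadjusted p under 0.05 (21.4% of all genes). The median log2 fold change of the 9 was 0.090, and that of all genes tested 0.0098. In the CPM values 1 of the 9 was higher without overlap (14.9% of all genes) and 1 lower (14.1%), beside 29% of all genes in either direction.

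**Figure D2:**
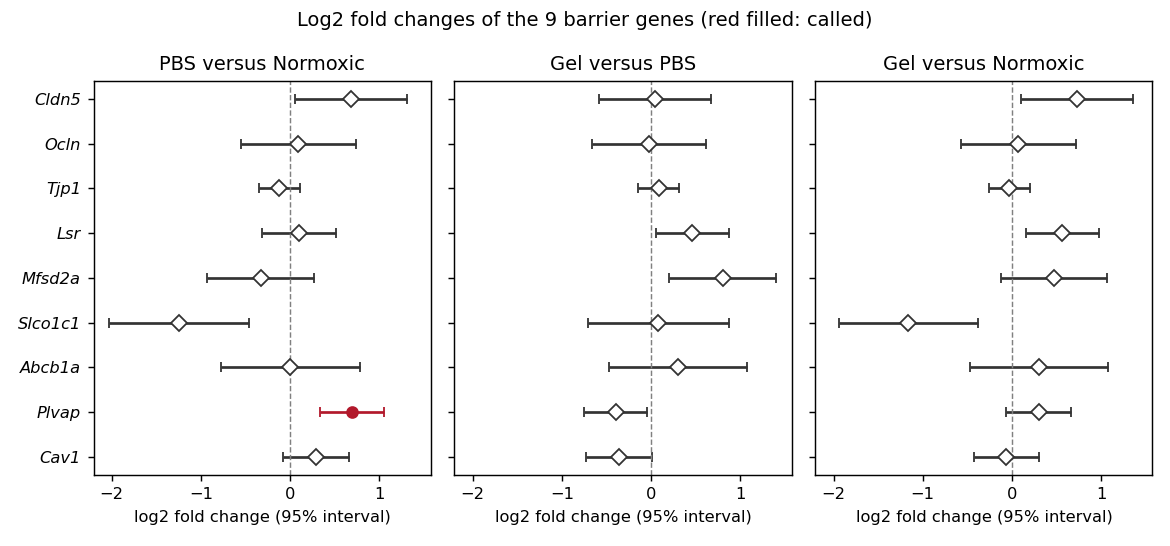
Log2 fold change of each barrier gene (x axis, point) with its 95% interval from the edgeR fit (bars) in the 3 comparisons. The filled red point is Plvap in PBS versus Normoxic (0.70), the only call, and Slco1c1 lies at -1.25 in PBS versus Normoxic and -1.16 in Gel versus Normoxic.

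Gel and PBS retinas were compared to see what the hydrogel with procyanidin C1 changes in the OIR retina. Mfsd2a had 7.57, 9.56 and 9.34 CPM in the Gel libraries, against 2.74, 6.03 and 6.36 CPM in PBS. Every Gel library was above every PBS library, with means of 8.83 ± 1.09 CPM in Gel and 5.04 ± 2.00 CPM in PBS (SD, n = 3 each). The log2 difference of 0.80 ± 0.27 (SE, 95% interval 0.20 to 1.41) was not called (edgeR adjusted p = 0.704, range 0.255 to 1 over the alternatives), and without PBS 1 it was 0.51. Lsr had 9.06, 6.67 and 7.36 CPM in Gel and 4.87, 5.18 and 6.58 CPM in PBS. The groups did not overlap in CPM, although Gel 2 at 6.67 CPM was just above PBS 3 at 6.58 CPM. CPM does not include the scaling factors of the fit (0.983 for Gel 2, 0.963 for PBS 3). With these PBS 3 would lie just above Gel 2, so the gap in Lsr depends on the scaling. The log2 difference was 0.46 ± 0.19 (95% interval 0.05 to 0.87, edgeR adjusted p = 0.840). Lsr is also made by epithelia. The 10 surface and ciliary epithelium markers summed to 71.3 to 157 CPM in Gel and 81.1 to 142 CPM in PBS, and Krt8 among them had 2.93, 2.19 and 2.25 CPM in Gel, against 0.414, 0.750 and 2.31 CPM in PBS. In both groups the library highest in Lsr was also highest in Krt8. Of the same list, Cdh1 and Epcam went the other way in Gel. Gel 1, highest in Lsr, was lowest in Cdh1 (0.842 CPM, against 1.93 and 1.69 CPM in Gel 2 and Gel 3). It was also lowest in Epcam (0.269 CPM, against 0.336 and 0.445 CPM, at 8 to 15 counts). In PBS both were highest in PBS 3, as Lsr was. The sum of the list did not follow Lsr in Gel: Gel 1, highest in Lsr, had the lowest sum (71.3 CPM), against 157 CPM in Gel 2 and 96.1 CPM in Gel 3. In PBS the library highest in Lsr, PBS 3, also had the highest sum (142 CPM). The part of surface or pigment epithelium in the Lsr difference was not tested. Plvap had 7.24, 6.51 and 6.38 CPM in Gel, against 8.66, 7.70 and 10.02 CPM in PBS, again without overlap, with a log2 difference of -0.40 ± 0.16 (95% interval -0.75 to -0.04, edgeR adjusted p = 0.843), or -0.26 without PBS 3.

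The other barrier genes overlapped between Gel and PBS. Cav1 had 37.3, 47.3 and 55.1 CPM in Gel, against 60.7, 49.4 and 67.8 CPM in PBS, and only Gel 3 reached into the PBS range (log2 difference -0.35 ± 0.17, edgeR adjusted p = 0.932), or -0.21 without PBS 3 and likewise without Gel 1. Cldn5 had 44.1, 70.2 and 59.5 CPM in Gel, all within the PBS range of 33.2 to 80.6 CPM, with a log2 difference of 0.05 ± 0.28. Slco1c1 had 2.56, 3.42 and 3.53 CPM in Gel, also within the PBS range of 1.24 to 4.30 CPM (0.08 ± 0.36). Abcb1a had 5.96, 10.5 and 10.4 CPM in Gel (0.30 ± 0.35 against PBS), Ocln 2.69, 4.01 and 4.54 CPM (-0.02 ± 0.29) and Tjp1 121, 120 and 133 CPM (0.09 ± 0.10), with edgeR adjusted p of 0.987 to 0.998 for these. Differences of up to 0.67 for Cldn5 and 0.88 for Slco1c1 on the log2 scale lie inside the 95% intervals, so these data do not show that Gel and PBS were alike.

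In Gel versus PBS edgeR called 0 of the 9 barrier genes and 0% of all genes, DESeq2 and limma-voom also called 0 of the 9, and in edgeR 3 had an unadjusted p under 0.05 (5.54% of all genes). By CPM without overlap 2 of the 9 were higher (2.73% of all genes) and 1 lower (5.15%), beside 7.89% in either direction. The median log2 difference of the 9 was 0.085, beside -0.012 for all genes.

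Gel and Normoxic retinas were compared for what differs between the hydrogel-treated OIR retina and the Normoxic retina. This comparison shares its Normoxic libraries with the first and its Gel libraries with the second. Slco1c1 was at 3.17 ± 0.532 CPM in Gel, against 7.16 ± 0.687 CPM in Normoxic (SD, n = 3 each), lower in all Gel libraries, with a log2 difference of -1.16 ± 0.36 (SE, 95% interval -1.94 to -0.38, edgeR adjusted p = 0.156, range 0.00362 to 0.388 over the alternatives). DESeq2 called it lower (adjusted p = 0.0293), and edgeR did so without PBS 1 or PBS 3 (adjusted p = 0.0242 and 0.0414) or with only the Gel and Normoxic libraries (adjusted p = 0.00948). Cldn5 was at 57.9 ± 13.2 CPM in Gel, against 35.1 ± 4.50 CPM in Normoxic, higher in all Gel libraries (0.73 ± 0.29, edgeR adjusted p = 0.286, 0.0489 without PBS 3 and 0.0350 with only the Gel and Normoxic libraries). Lsr at 7.70 ± 1.23 CPM in Gel, against 5.23 ± 0.252 CPM in Normoxic, was also higher in every Gel library (0.56 ± 0.19, edgeR adjusted p = 0.192).

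Mfsd2a (8.83 ± 1.09 CPM in Gel, 6.40 ± 0.537 CPM in Normoxic) and Plvap (6.71 ± 0.464 CPM in Gel, 5.49 ± 0.315 CPM in Normoxic) were higher in every Gel library too, with log2 differences of 0.47 ± 0.27 and 0.30 ± 0.16 that did not pass. Abcb1a (0.31 ± 0.35), Ocln (0.07 ± 0.29), Tjp1 (-0.03 ± 0.10) and Cav1 (-0.06 ± 0.17) overlapped between Gel and Normoxic. In all, edgeR called 0 of the 9 (1.12% of all genes were called higher, 0.288% lower and 1.41% either way). Of the 9, limma-voom, which called 185 genes in all, called 0, and DESeq2, which called 854, called 1. In edgeR 3 of the 9 had an unadjusted p under 0.05 (13.2% of all genes). Without overlap in CPM, 4 of the 9 were higher (11.1% of all genes) and 1 lower (12.8%), beside 23.9% in either direction. The median log2 difference was 0.30 for the 9 and 0.00070 for all genes.

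Genes that work beside the barrier genes were read from 4 companion lists. Of 24 other junction genes, 23 were kept, and edgeR called 2 higher in PBS versus Normoxic, beside 4.31% of all genes. They were Cdh5, the cadherin of endothelial adherens junctions, and F11r, the adhesion molecule JAM-A. Cdh5 was at 24.9 ± 2.56 CPM in PBS, against 13.8 ± 2.66 CPM in Normoxic (SD, n = 3 each, edgeR adjusted p = 0.0107). For F11r the log2 difference was 0.75 ± 0.17 (SE, edgeR adjusted p = 0.0229). Cdh5 was also called higher in Gel versus Normoxic, as the only one of the list, at 24.8 ± 2.35 CPM in Gel (0.86 ± 0.16, edgeR adjusted p = 0.0310), where edgeR called 1.12% of all genes higher. F11r, at 10.3 ± 1.20 CPM in Gel and 6.57 ± 0.519 CPM in Normoxic, was also above every Normoxic library in every Gel library. Its log2 difference of 0.66 was not called by edgeR (adjusted p = 0.0931) and was called by DESeq2. The list's median was 0.11 in PBS versus Normoxic and 0.11 in Gel versus Normoxic. The edgeR calls ended without Normoxic 1 or Normoxic 2 for Cdh5 in both comparisons (in Gel versus Normoxic also without Gel 2 or Gel 3, adjusted p up to 0.170), and without any Normoxic library for F11r (adjusted p up to 0.0983).

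The list of 18 other transporter and receptor genes, all kept, also holds Spock2, which is neither. In PBS versus Normoxic edgeR called 2 higher and 1, Spock2, lower, beside 4.31% of all genes called higher and 2.03% lower. Slc7a5, a carrier of large neutral amino acids, was at 145 ± 8.36 CPM in PBS, against 95.3 ± 6.30 CPM in Normoxic (SD, n = 3 each, edgeR adjusted p = 0.0156), and its partner chain Slc3a2 rose by 0.59 ± 0.14 on the log2 scale (SE, edgeR adjusted p = 0.0279). Spock2, a secreted proteoglycan, was abundant (547 ± 84.8 CPM in PBS, against 755 ± 36.9 CPM in Normoxic) and fell in PBS (edgeR adjusted p = 0.0382). In Gel versus Normoxic edgeR called 2 higher, beside 1.12% of all genes: Slc7a5 (0.83 ± 0.12, edgeR adjusted p = 0.00989) and the cationic amino acid carrier Slc7a1. The latter was at 53.9 ± 20.0 CPM in Gel and 20.7 ± 1.35 CPM in Normoxic (edgeR adjusted p = 0.0120). Gel 1 was the highest, at 76.5 CPM, against 38.1 and 47.2 CPM in the other Gel libraries. In PBS Slc7a1 was at 35.4 ± 4.38 CPM, also above every Normoxic library (0.79 ± 0.22), which edgeR did not call (adjusted p = 0.0577) and DESeq2 did. Slc3a2 was at 200 ± 7.34 CPM in Gel, against 138 ± 5.42 CPM in Normoxic, also above every Normoxic library. Its log2 difference of 0.54 was not called by edgeR (adjusted p = 0.0915) and was called by DESeq2. Slc2a1, the glucose carrier of the barrier, had 335 ± 84.2 CPM in PBS, against 324 ± 20.3 CPM in Normoxic (0.06 ± 0.17, edgeR adjusted p = 0.863). The list's median was 0.085 in PBS versus Normoxic and 0.015 in Gel versus Normoxic. In edgeR, leaving out any Normoxic library ended the calls of Slc3a2, Slc7a1 and Spock2, and of Slc7a5 in PBS versus Normoxic, while Normoxic 1 or 2 ended that of Slc7a5 in Gel versus Normoxic. The call of Spock2 also ended without PBS 1, PBS 3, Gel 2 or Gel 3 (edgeR adjusted p up to 0.171), with total-count scaling and with limma on FPKM, and those of Spock2 and Slc3a2 with the 6 libraries compared.

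Of 12 caveola and vesicle genes listed, 11 were kept, and edgeR called 4 higher in PBS versus Normoxic, beside 4.31% of all genes. The list's median was 0.37, against 0.0098 over all genes. Cavin1 and Cavin3, coat proteins of caveolae, were at 23.9 ± 4.10 and 16.7 ± 4.78 CPM in PBS, against 12.5 ± 2.22 and 7.59 ± 0.696 CPM in Normoxic (SD, n = 3 each, edgeR adjusted p = 0.0119 and 0.0185). Ehd2, which sits at the caveolar neck, rose by 0.60 ± 0.12 on the log2 scale (SE, edgeR adjusted p = 0.0147), and the scavenger receptor Stab1, made by sinusoidal endothelium and macrophages, by 1.39 ± 0.16 (edgeR adjusted p = 0.000979). Stab1 was the only one called in Gel versus Normoxic (15.6 ± 2.06 CPM in Gel and 7.15 ± 1.20 CPM in Normoxic, edgeR adjusted p = 0.00831), where edgeR called 1.12% of all genes higher and the list's median was 0.40. Cavin1 (17.1 ± 1.89 CPM), Cavin3 (11.5 ± 2.62 CPM) and Ehd2 (35.5 ± 2.41 CPM) in Gel were also above every Normoxic library, as were 11.1% of all genes. They were not called (edgeR adjusted p = 0.303, 0.295 and 0.213). Microglia and macrophage markers, 10 in all with 0 at 0, summed to 142 to 192 CPM in Gel, 189 to 293 CPM in PBS and 77.9 to 89.4 CPM in Normoxic, and their part in the Stab1 values was not tested. Cav2, the partner of Cav1, was at 13.4 ± 2.15 CPM in PBS, against 11.4 ± 0.271 CPM in Normoxic (edgeR adjusted p = 0.395). Without Normoxic 1 or Normoxic 2 edgeR no longer called Cavin1, Cavin3 or Ehd2, nor Cavin3 without Normoxic 3 (adjusted p up to 0.0879), and without Normoxic 2 Stab1 was no longer called in Gel versus Normoxic (adjusted p = 0.0548).

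Of 15 norrin and Wnt barrier induction genes, such as Ndp, Fzd4 and Lef1, all kept, edgeR called 0 in each comparison, and 1 had an unadjusted p under 0.05 in each. DESeq2 and limma-voom called 0 as well, and the medians were -0.051 in PBS versus Normoxic and 0.0015 in Gel versus Normoxic. In Gel versus PBS edgeR called 0 genes of all 4 lists, with 2 junction, 2 transporter, 2 caveola and 1 Wnt gene at an unadjusted p under 0.05, and DESeq2 and limma-voom called 0.

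**Figure D3:**
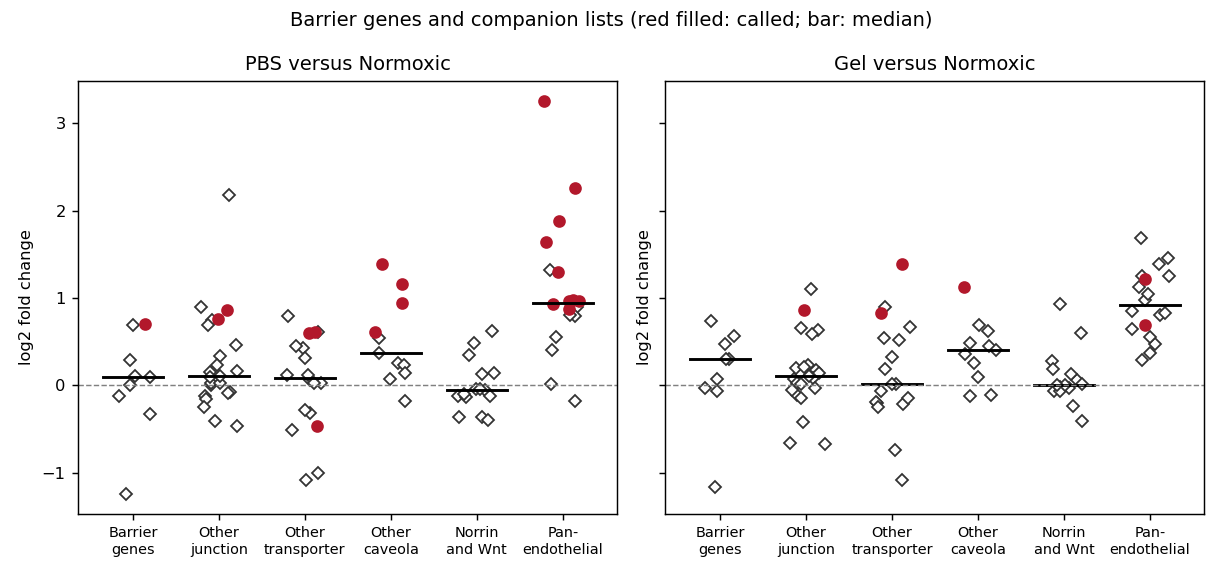
Log2 fold change (y axis) of each kept gene of the barrier genes, the 4 companion lists and the pan-endothelial genes in PBS versus Normoxic (left) and Gel versus Normoxic (right), with called genes as filled red points and the list median as a bar. The pan-endothelial median is 0.95 in PBS versus Normoxic, against 0.090 for the barrier genes.

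The barrier genes were then set against the endothelial genes. Several barrier genes, such as Tjp1, Cav1 and Lsr, are also made by other cells of the eye, so the ratio does not give a level per endothelial cell. The median log2 fold change was 0.95 for the 18 pan-endothelial genes and 0.090 for the barrier genes in PBS versus Normoxic, and 0.91 and 0.30 in Gel versus Normoxic. Pan-endothelial genes ranged from -0.19 to 3.26 in PBS versus Normoxic, and the barrier genes Slco1c1 and Mfsd2a lay below that range. Its upper end was Gpihbp1, which averaged only 0.131 CPM in Normoxic and 1.26 CPM in PBS. The 18 genes did not move alike, with Ptprb at 0.014 and Ecscr at 2.26, and all carry equal weight in the ratio. Each library's level was next expressed relative to the mean log2 CPM of the 18 genes, with the Normoxic mean set to 0. On this scale Slco1c1 lay at -2.09, -2.07 and -2.04 in Gel and at -3.23, -1.94 and -2.12 in PBS, with the Normoxic libraries at -0.11 to 0.18. Mfsd2a lay at -0.39, -0.45 and -0.49 in Gel and at -1.96, -0.95 and -1.40 in PBS, so that the groups were fully apart. How many of all genes were apart on this scale was not counted. The mean of the 18 genes itself was 0.64 to 1.46 above Normoxic in the OIR libraries, which lowers any gene on this scale. In CPM Mfsd2a was above every Normoxic library in Gel (7.57 to 9.56 CPM, against 5.94 to 6.99 CPM). Cldn5 lay at -0.30, -0.016 and -0.27 in Gel and at -0.83, -0.25 and -0.19 in PBS, the nearest to the Normoxic libraries of the junction genes in PBS.

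With the libraries scaled to the endothelial genes, edgeR called 7 of the 9 barrier genes lower in PBS versus Normoxic, where it called 77.8% of all genes lower, 1.45% higher, and the median of all genes was -1.01. It called 6 of the 9 lower in Gel versus Normoxic (77.4% of all genes lower, 0.668% higher, median -0.92) and 0 in Gel versus PBS. The share of barrier genes called was near that of all genes, so the counts say nothing particular of them. Against those medians, Slco1c1 lay at -2.37 in PBS and -2.11 in Gel, while Plvap in PBS (-0.36, edgeR adjusted p = 0.174) was not called.

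**Figure D4:**
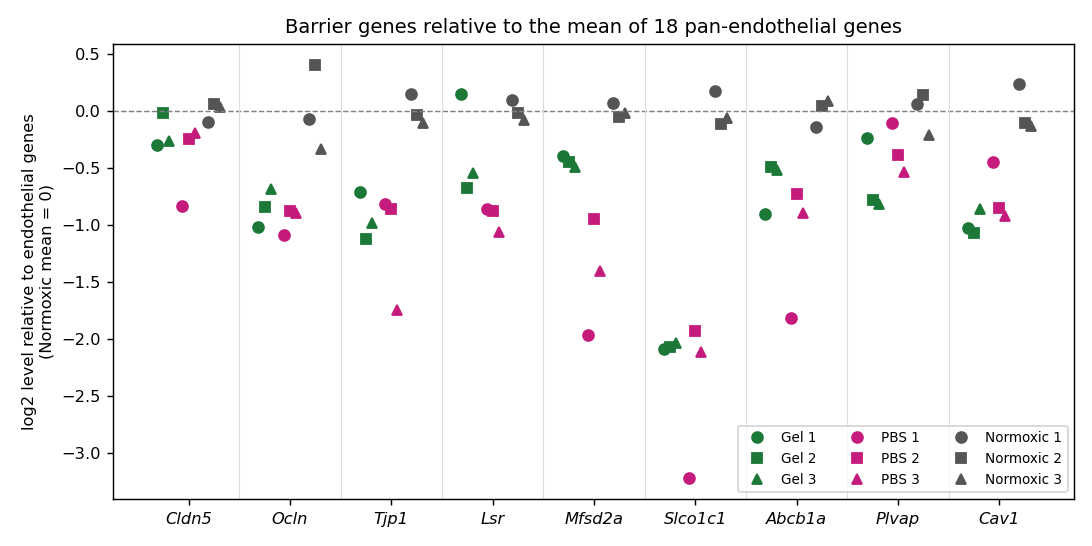
Log2 level of each barrier gene relative to the mean of 18 pan-endothelial genes (y axis, Normoxic mean at 0) in each of the 9 libraries, Gel, PBS and Normoxic from left to right within a gene. Slco1c1 lies at -1.94 or lower in all 6 OIR libraries, and for Mfsd2a the Gel libraries (-0.49 to -0.39) lie between PBS (-1.96 to -0.95) and Normoxic. The mean of the 18 genes is higher in all 6 OIR libraries than in Normoxic, and in CPM Mfsd2a in Gel lies above Normoxic.

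The genes most like each barrier gene were taken as those with the highest Pearson correlation of log2 CPM over the 9 libraries, among genes averaging 1 CPM or more. The libraries form 3 groups and share their scaling, so the values only describe likeness. For Slco1c1 they were Gpr37 (r = 0.98), Slco1a4 (r = 0.97), another organic anion carrier of the same family, and Scn3b (r = 0.97). Slco1a4 was at 6.11 ± 1.32 CPM in Gel, 4.80 ± 2.53 CPM in PBS, against 10.3 ± 0.955 CPM in Normoxic (SD, n = 3 each), lower without overlap in both OIR groups, with log2 differences of -0.75 ± 0.34 in Gel and -1.08 ± 0.34 in PBS against Normoxic (SE, edgeR adjusted p = 0.379 and 0.0947). The PBS difference of Slco1a4 was called by DESeq2, and by edgeR with no filter or without PBS 3 (adjusted p = 0.00726), and the Gel difference with only the Gel and Normoxic libraries (edgeR adjusted p = 0.0454). Mfsd2a was nearest to Mir670hg (r = 0.96), the amino acid carrier Slc38a5 (r = 0.95) and the angiopoietin receptor Tek (r = 0.94). Tek is also among the 18 pan-endothelial genes. Cldn5 was nearest to Fbln5, an elastic fibre protein (r = 0.97), Plvap to Efemp2 (r = 0.97), Cav1 to Bnip3l (r = 0.97), Abcb1a to Entpd2 (r = 0.95), Lsr to Rad9a (r = 0.99), Ocln to Kcnk1 (r = 0.97) and Tjp1 to Zeb1 (r = 0.94). Among the barrier genes themselves the highest value was 0.85 between Mfsd2a and Abcb1a, and the lowest -0.79 between Tjp1 and Plvap.

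The promoters of Slco1c1, of Slco1a4, which followed it over the libraries, and of Mfsd2a are shown because, among the 9, Slco1c1 had the largest log2 difference from Normoxic and Mfsd2a the largest between Gel and PBS. Each sequence is the 250 bases before the RefSeq start, 5′ to 3′ on the gene's strand, in build GRCm38.p6. Capitals mark matches on either strand to CTTTG, the core letters of LEF/TCF factors, which act with beta-catenin, and to ACGTG and GCGTG, the core letters of the hypoxia response element. ACGTG overlaps with its own reverse complement in CACGTG, which counts as 2 matches. Slco1c1 (chr6:141524104-141524353, plus strand) and Slco1a4 (chr6:141856221-141856470, minus strand) each hold 1 match to CTTTG and 0 to the hypoxia letters. Mfsd2a (chr4:122961189-122961438, minus strand) holds 2 of each.
Slco1c1: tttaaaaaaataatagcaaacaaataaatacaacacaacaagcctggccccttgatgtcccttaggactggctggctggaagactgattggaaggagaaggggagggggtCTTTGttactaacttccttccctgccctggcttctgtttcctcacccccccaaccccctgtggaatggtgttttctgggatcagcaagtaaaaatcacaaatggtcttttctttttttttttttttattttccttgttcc
Slco1a4: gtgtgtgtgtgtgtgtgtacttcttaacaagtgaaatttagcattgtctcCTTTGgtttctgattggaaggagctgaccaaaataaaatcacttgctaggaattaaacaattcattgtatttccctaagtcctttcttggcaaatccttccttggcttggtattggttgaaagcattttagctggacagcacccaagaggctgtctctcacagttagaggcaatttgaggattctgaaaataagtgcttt
Mfsd2a: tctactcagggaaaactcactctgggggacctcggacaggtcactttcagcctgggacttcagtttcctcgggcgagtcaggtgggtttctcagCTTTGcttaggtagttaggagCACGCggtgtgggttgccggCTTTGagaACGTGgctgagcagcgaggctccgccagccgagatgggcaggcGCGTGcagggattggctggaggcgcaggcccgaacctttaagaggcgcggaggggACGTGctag
RefSeq gave a promoter for 8 of the 9 barrier genes, Plvap being the exception in the table used. CTTTG was found in 4 of the 8 (Slco1c1, Mfsd2a, Abcb1a and Lsr) and in 48.6% of all 32851 promoters of this length, ACGTG in 2 of the 8 (16.6% of all) and GCGTG in 3 of the 8 (28.2%). A match describes letters in this window and is not a site shown to be used.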

How the data were processed

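Bulk RNA of 9 mouse retina libraries was analysed, 3 per group, from the whole-number counts per gene that the authors deposited. The tools named, per the submitters' processing notes, are RSEM 1.3.1, Bowtie2 and DESeq2 1.4.5, beside build GRCm39. Their roles, strand use and any rounding of estimated counts are not given in the sources used here. FPKM values were likewise deposited by the authors. Counts were fitted in R 4.3.3 with edgeR 4.0.16 (filterByExpr with minimum count 10, TMM scaling, quasi-likelihood F test in 1 fit of the 9 libraries with a mean per group), with Benjamini-Hochberg adjustment over the 17362 genes kept (65.1% of those listed). SE is the log2 fold change over the square root of F. Alternatives were RLE or total-count scaling, scaling to the endothelial genes, DESeq2 1.42.0, limma 3.58.1 (voom, or log2 of FPKM plus 0.1 or 1), other filters, a replicate block, removal of the length trend, the 6 libraries compared, and leaving out each library. The fit was tested on simulated data. The barrier genes, companion lists and marker lists were chosen with earlier results of these data known. Companion genes given with values were Slc2a1, Cdh5, Cav2 and those called in at least 1 comparison, and likeness took the 3 genes with the highest r. Of these 3 only the first is given for some barrier genes. Krt5, Krt8, Krt12, Cdh1, Epcam, Pax2, Pdgfra, Igf2bp2 and Abcb1b were named after their values were seen. Promoters are of another build and carry no coordinate of the files. A further retinal marker is not reported here.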

Additional observations from a re-analysis of the deposited data

How the results depend on the processing

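Directions and calls of the barrier genes were recomputed under each alternative, and the cause of turns and moved counts was not tested, except that scaling to the endothelial genes by its construction moved the median of all genes to -1.01 in PBS versus Normoxic and -0.92 in Gel versus Normoxic. That scaling turned, in PBS versus Normoxic, Abcb1a (-1.10), Cav1 (-0.76), Cldn5 (-0.43), Lsr (-0.96), Ocln (-1.01) and Plvap (-0.36), in Gel versus Normoxic Abcb1a (-0.65), Cldn5 (-0.21), Lsr (-0.33), Mfsd2a (-0.46), Ocln (-0.90) and Plvap (-0.62), and in Gel against PBS Ocln (0.12). It gave 7 barrier genes called in PBS versus Normoxic and 6 in Gel versus Normoxic. Removing the length trend turned Tjp1 (0.017 in PBS and 0.044 in Gel, both against Normoxic) and Lsr (-0.0032 in PBS versus Normoxic). Abcb1a in PBS versus Normoxic, at 0.0016, also turned with DESeq2 (-0.0074), total-count scaling (-0.013), RLE scaling (-0.0062), limma on log2(FPKM + 0.1) (-0.12), on log2(FPKM + 1) (-0.045), limma-voom (-0.12), a minimum count of 50 (-0.0020) and the 6 libraries compared (-0.0036).

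The count of barrier genes called in PBS versus Normoxic was 2 with DESeq2, limma-voom, no filter, the length trend removed or log2(FPKM + 1), 0 with the 6 libraries compared, and 0 to 1 when a library was left out. In Gel versus Normoxic it was 1 with DESeq2, 2 with the 6 libraries compared and 0 to 2 when a library was left out, and in Gel versus PBS 0 under every alternative run. Over all genes, DESeq2 called 1936 in PBS versus Normoxic, 64 for Gel against PBS and 854 for Gel against Normoxic, where edgeR called 1101, 0 and 245, and the share higher in Gel versus Normoxic was 65.7%, against 79.6%. Without the filter edgeR called 24 in Gel versus PBS, and 389 when Gel was set against Normoxic, with the length trend removed 3 and 438, and with the 6 libraries compared 643 in Gel versus Normoxic. Leaving out 1 library gave 455 to 1184, 0 to 12 and 47 to 735 calls.

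Leaving out 1 library moved the log2 fold change across 0 for these genes, given as lowest and highest value. In PBS versus Normoxic they were Abcb1a (-0.38 to 0.34), Lsr (-0.075 to 0.19), Ocln (-0.21 to 0.30) and Slc2a1 (-0.16 to 0.20), and in Gel versus Normoxic Cav1 (-0.19 to 0.080) and Ocln (-0.078 to 0.28). In Gel versus PBS they were Abcb1a (-0.031 to 0.69), Cldn5 (-0.22 to 0.45), Ocln (-0.20 to 0.28), Slco1c1 (-0.28 to 0.50), Cav2 (-0.27 to 0.0073), Cdh5 (-0.067 to 0.11), F11r (-0.19 to 0.068), Slc3a2 (-0.14 to 0.14) and Slco1a4 (-0.012 to 0.82).

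The labels do not say that the replicate numbers pair the libraries, and the values gave no clear sign of it, which does not exclude pairing. Deviations from the group mean correlated at 0.33, -0.21 and 0.36 between Gel and PBS for replicates 1, 2 and 3. Where Normoxic was one side they correlated at -0.10 to -0.039, and 4 of 9 libraries correlated best with their own number. With the replicate block edgeR called 1050, 0 and 227 genes and 1, 0 and 0 barrier genes in the 3 comparisons. In PBS versus Normoxic it called Slco1c1 (-1.36, adjusted p = 0.0340) in place of Plvap (0.69, adjusted p = 0.0562), and Abcb1a was at -0.10. Of the companion genes it called Slco1a4 lower in PBS versus Normoxic and no longer called Spock2. At 39 to 153 counts of Slco1c1 and 80 to 179 of Ocln in OIR libraries, with 3 libraries a group, differences within their 95% intervals could not be shown.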
